A study of Homo sapiens with 6 samples.

Results

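The respiratory chain genes are the protein-coding genes whose products build the complexes of oxidative phosphorylation, encoded in part by the nucleus and in part by the mitochondrial chromosome. They were chosen by name, as the protein-coding genes of the GENCODE annotation of GRCh38 with symbols of the NDUFA, NDUFB, NDUFC, NDUFS and NDUFV series, *SDHA* to *SDHD*, the UQCR, COX and ATP5 series and the MT- genes. The rule found 120 genes of the 60671 gene identifiers in the count files, 13 of them mitochondrially encoded and 107 nuclear. The name rule also takes in assembly factors, tissue-restricted paralogs and *ATP5IF1*, the inhibitor of the ATP synthase, and it leaves out *CYC1* and *CYCS*, the cytochromes c1 and c, which were followed beside the members.

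RNA was taken from K562 cells, a human chronic myelogenous leukemia line with erythroid features, in the form of a clonal line that carried a doxycycline-inducible fusion of a Flag tag, a nuclear localisation signal, the GpC methyltransferase M.CviPI and Lamin-B1. The 3 vehicle cultures received 0.1% DMSO and the 3 EZH2i cultures received GSK343, an inhibitor of the EZH2 methyltransferase of Polycomb repressive complex 2, at 1 µM. Both treatments lasted 72 h, and doxycycline at 1 µg/mL was present in all 6 cultures for the final 24 h, so the induced fusion protein is common to both groups. The study set up the treatments in triplicate, each culture gave 1 library of 3′ mRNA sequencing, and all 6 came from the same clone.

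The respiratory chain carries electrons from NADH (complex I) and succinate (complex II) through ubiquinone to complex III, then through cytochrome c to complex IV, where oxygen is reduced. Complexes I, III and IV pump protons, and complex V, the ATP synthase, uses the gradient to make ATP. Complex II is built from nuclear gene products only, whereas the other complexes combine nuclear subunits with a few core subunits that are made inside the mitochondrion, so that their assembly needs products of both genomes.

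The libraries held between 6327544 and 8987768 reads on genes. Levels are given in CPM, read counts brought to a common library size with factors from the trimmed mean of M values. A 3′ library gives about 1 fragment per transcript whatever its length, so CPM was not divided by length, and levels are compared within a gene and not ranked between genes. A gene was called where the adjusted p of edgeR's quasi-likelihood test (Benjamini-Hochberg over all tested genes) was under 0.05, and log2 fold changes are EZH2i over DMSO with their standard error (SE). Erythroid genes of K562 were present in both groups, with *GATA1* at 79.9 ± 5.15 CPM in DMSO and 96.7 ± 9.08 CPM in EZH2i (SD, n = 3), *TAL1* at 108 ± 4.78 and 112 ± 8.36 CPM, and *MS4A1*, a B cell gene, at 0 reads in all libraries. Of 9 markers of other cell types 2 were called higher in EZH2i: the myeloid gene *LYZ*, at 13.9 ± 2.72 and 21.3 ± 1.57 CPM, and the fibroblast gene *COL1A1*, at 1.57 ± 0.507 and 6.04 ± 1.91 CPM, while *CD3E*, *CD14* and *COL1A2* stayed under 1 CPM in both group means. The epithelial genes *EPCAM*, at 77.5 ± 5.48 and 63.9 ± 2.71 CPM, and *KRT18*, at 101 ± 9.29 and 97.2 ± 12.3 CPM, were also present and not called. Their part in the results was not tested. EZH2i replicate 1 stood apart from the rest: it was the highest of the 6 libraries for 23.9% of all tested genes and the lowest for 24.3%, where the other libraries took 12.5 to 17.5% and 12.8 to 17.4%. EZH2i replicate 3 had 12.7% of its listed reads outside any gene, against 7.43 to 8.51% elsewhere.

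The 13 mitochondrially encoded mRNAs are shown first by the 3′ ends of their coding sequences. An oligo-dT-primed 3′ library reads a transcript through its poly(A) tail, and most of these mRNAs end at or near the last codon. Where each transcript ended was not tested. The last 30 bases of each coding sequence, 5′ to 3′ on its own strand from GRCh38, follow in genome order, with the bases of the last codon in capitals.
MT-ND1 (chrM:4233-4262, + strand): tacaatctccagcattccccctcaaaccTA
MT-ND2 (chrM:5482-5511, + strand): ctatctccccttttatactaataatcttaT
MT-CO1 (chrM:7416-7445, + strand): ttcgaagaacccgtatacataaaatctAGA
MT-CO2 (chrM:8240-8269, + strand): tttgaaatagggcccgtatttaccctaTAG
MT-ATP8 (chrM:8543-8572, + strand): tcgcttcattcattgcccccacaatccTAG
MT-ATP6 (chrM:9178-9207, + strand): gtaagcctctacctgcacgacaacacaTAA
MT-CO3 (chrM:9961-9990, + strand): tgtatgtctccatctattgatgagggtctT
MT-ND3 (chrM:10375-10404, + strand): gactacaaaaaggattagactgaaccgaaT
MT-ND4L (chrM:10737-10766, + strand): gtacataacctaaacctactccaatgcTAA
MT-ND4 (chrM:12108-12137, + strand): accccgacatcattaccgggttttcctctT
MT-ND5 (chrM:14119-14148, + strand): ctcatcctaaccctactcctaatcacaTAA
MT-ND6 (chrM:14149-14178, - strand): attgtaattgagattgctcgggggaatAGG
MT-CYB (chrM:15858-15887, + strand): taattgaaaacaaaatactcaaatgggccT
In 6 of the 13 (*MT-ND1*, *MT-ND2*, *MT-CO3*, *MT-ND3*, *MT-ND4* and *MT-CYB*) the annotated sequence stops inside the stop codon, with TA or a lone T left, and the poly(A) tail is known to supply the missing A bases. *MT-ND6* is the only one of the 13 on the minus strand.

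Some of these genes share bases. The start of *MT-ATP6* lies inside *MT-ATP8* over 46 bases, chrM:8527-8572, which read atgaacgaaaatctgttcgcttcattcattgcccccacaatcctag and end with the *MT-ATP8* stop codon. *MT-ND4L* and *MT-ND4* share 7 bases, and *MT-ATP6* and *MT-CO3* share 1. *MT-ATP8* and *MT-ATP6*, and likewise *MT-ND4L* and *MT-ND4*, are known to be carried on common transcripts, so the reads of each such pair cannot be fully separated. The printed ends of *MT-ATP8* and *MT-ND4L* therefore lie inside such a transcript and are not its 3′ end. Reads over both genes of a pair are among the 2.25 to 2.48% of listed reads that the files set apart as ambiguous. The nuclear genome also holds copies of mitochondrial genes. The 404 annotated pseudogenes named after them took 500 to 1181 reads per library, or 0.131 to 0.189% of the number on the mitochondrial mRNAs, and *MTATP6P1*, the copy of *MT-ATP6*, took 0.536 to 0.847% of the reads of *MT-ATP6* itself.

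The mitochondrially encoded mRNAs as a whole held the same share of the reads in both groups within the spread between cultures. They took 5.36, 7.16 and 6.83% of the reads on genes in the DMSO libraries and 5.85, 6.28 and 7.39% in the EZH2i libraries, means of 6.45 ± 0.958% and 6.51 ± 0.795% (SD, n = 3). The groups overlap over most of their range, and DMSO replicate 1 was the lowest of all 6. Leaving out each library in turn moved the difference in means between -0.488 and 0.412 percentage points, the first of these without DMSO replicate 1 and the second without DMSO replicate 2.

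The nuclear-encoded members took a smaller and tighter share, at 2.31, 2.44 and 2.35% in DMSO and 2.34, 2.30 and 2.27% in EZH2i. The ratio of mitochondrially encoded to nuclear-encoded reads was therefore 2.32, 2.94 and 2.91 in DMSO and 2.50, 2.73 and 3.25 in EZH2i. The groups overlap, and the libraries stand in the same order by this ratio as by their mitochondrial share. Exact two-sided permutation tests over samples (n = 3 against 3) gave p = 1 for the mitochondrial share, p = 0.2 for the nuclear share and p = 0.9 for the ratio, where the smallest p this design allows is 0.1. The tests were added to a plan that only described these shares, and they took the libraries as unpaired. With so few libraries a high p does not show that the shares are equal.

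**Figure D1:**
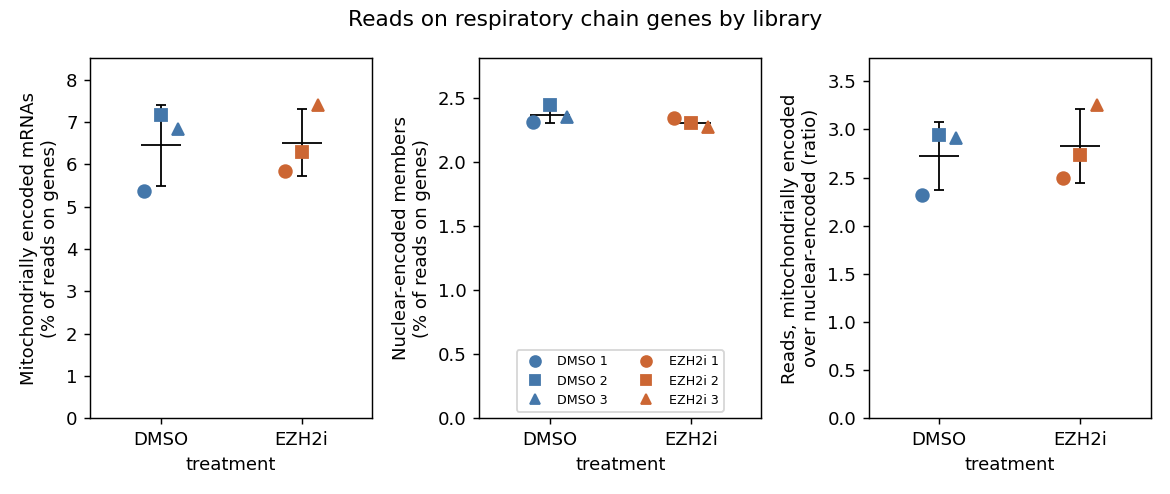
Reads on respiratory chain genes in each library, as the percentage of reads on genes held by the mitochondrially encoded mRNAs (left) and by the nuclear-encoded members (middle), and as the ratio of the former to the latter (right). Points are libraries, with the marker giving the replicate, and black bars are the mean and SD of 3. The ratios of the DMSO libraries, 2.32 to 2.94, lie largely within the span of the EZH2i libraries, 2.50 to 3.25.

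None of the 13 mitochondrially encoded mRNAs was called in edgeR, against 4.26% of all 12364 tested genes (527 genes), and none had an unadjusted p under 0.05, against 19.1% of all tested genes. DESeq2 also called none of them. Their log2 fold changes ran from -0.18 to 0.23 with a median of 0.01, 7 above 0 and 6 below. These mRNAs moved together from library to library: DMSO replicate 1 was the lowest of the 6 libraries for 11 of the 13, and the highest library was DMSO replicate 2 for 6 and EZH2i replicate 3 for another 6.

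Of the 7 complex I subunits made in the mitochondrion, *MT-ND1*, which helps form the ubiquinone site, stood at 1109, 1758 and 1411 CPM in DMSO and 1394, 1191 and 1373 CPM in EZH2i. The proton-pumping subunit *MT-ND2* stood at 6046, 8808 and 8115 CPM against 5404, 7179 and 9005 CPM. Another pump, *MT-ND4*, had 6940, 11266 and 9916 CPM in DMSO and 7270, 8217 and 10781 CPM in EZH2i. In each of these 3 genes the EZH2i libraries fall inside or across the DMSO range.

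The small membrane subunit *MT-ND3* had 8007, 10651 and 10583 CPM against 10189, 9106 and 10226 CPM. *MT-ND4L*, the smallest of them, had 1130, 1207 and 1419 CPM in DMSO and 1423, 1446 and 1492 CPM in EZH2i. *MT-ND5*, the most distal pump, had 1729, 1926 and 2008 CPM against 2136, 2142 and 2261 CPM. The groups did not overlap for *MT-ND4L* (log2 fold change 0.22, SE 0.107, edgeR adjusted p = 0.282) and *MT-ND5* (0.21, SE 0.102, adjusted p = 0.277), as was so, with EZH2i above, for 13.3% of all tested genes, and neither passed the test.

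*MT-ND6*, read from the opposite strand, was at 75.2, 89.6 and 87.8 CPM in DMSO and 89.3, 93.2 and 111 CPM in EZH2i. Its fold change of 0.21 (SE 0.115, edgeR adjusted p = 0.329) was close to that of *MT-ND5*, with which it lies end to end on the other strand. It was as close to those of *MT-ND4L* (0.22) and *MT-ATP8* (0.23), which lie elsewhere. The groups overlap in DMSO replicate 2, and the *MT-ND6* fold change was 0.11 without EZH2i replicate 3 and 0.14 without DMSO replicate 1. The strand setting of the counts is not given, and whether reads of the opposite strand were counted on *MT-ND6* was not tested.

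Complex III has 1 mitochondrially encoded subunit, cytochrome b. *MT-CYB* stood at 2946, 4599 and 3968 CPM in DMSO and 3530, 3311 and 4101 CPM in EZH2i, and the EZH2i values lie inside the DMSO range. In complex IV, the catalytic subunit *MT-CO1* was at 909, 1062 and 1075 CPM against 1007, 1147 and 1111 CPM. *MT-CO2*, which takes electrons from cytochrome c, was at 5120, 6840 and 6248 CPM against 3647, 6076 and 6310 CPM. Its lowest value was in EZH2i replicate 1, without which the log2 fold change went from -0.18 to 0.03.

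*MT-CO3*, the remaining core subunit of complex IV, had 11049, 13026 and 13420 CPM in DMSO and 11786, 12617 and 14017 CPM in EZH2i. In complex V, *MT-ATP6*, part of the proton channel, had 4975, 9223 and 7916 CPM against 6491, 6143 and 7920 CPM. *MT-ATP8*, a small membrane subunit, had 3025, 3626 and 3471 CPM against 3279, 4034 and 4565 CPM, a log2 fold change of 0.23 that was 0.12 without EZH2i replicate 3 and 0.35 without EZH2i replicate 1. The coefficient of variation among the DMSO cultures reached 29.5% over the 13 mRNAs, in *MT-ATP6*, and its median was 14.4% against 8.34% for the tested nuclear members and 10.9% for all tested genes. In EZH2i the medians were 11.2, 9.07 and 12.5%.

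**Figure D2:**
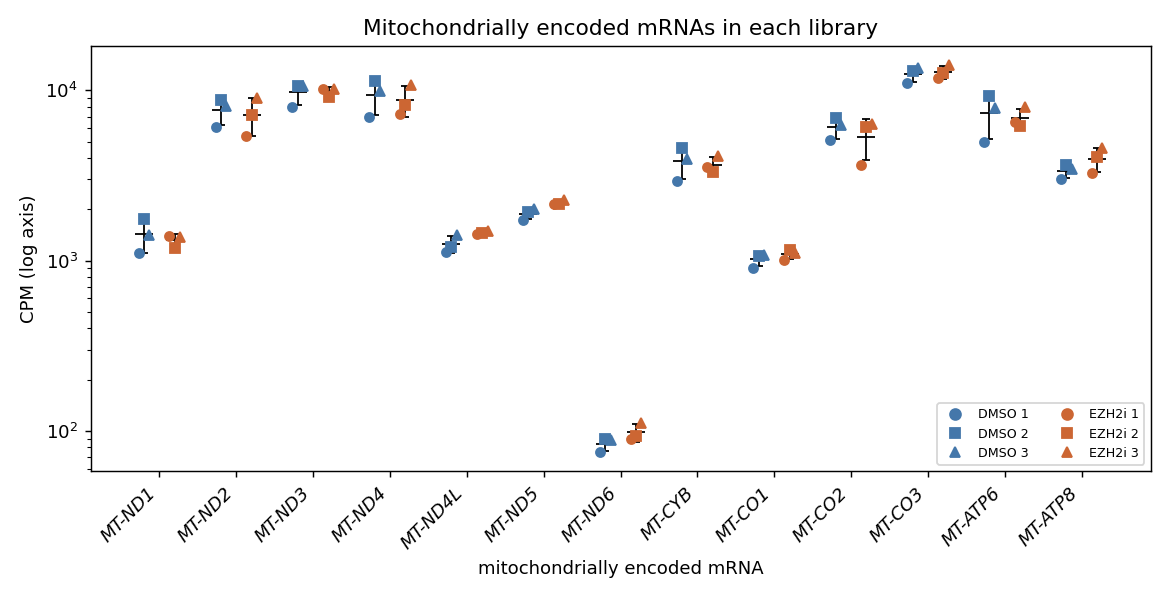
Level of each mitochondrially encoded mRNA in CPM (log axis) in the 3 DMSO and 3 EZH2i libraries, with the marker giving the replicate and black bars the mean and SD of 3. DMSO replicate 1 (blue circles) is the lowest library for 11 of the 13 mRNAs, and the groups separate only for *MT-ND4L* and *MT-ND5*.

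The name rule leaves out the non-coding genes of the mitochondrial chromosome. Of these 24 rRNA and tRNA genes 16 were tested and 5 were called, all higher in EZH2i, beside 3.34% of all tested genes called higher: *MT-RNR1* (the small ribosomal RNA), *MT-TC*, *MT-TP*, *MT-TS2* and *MT-TY*. These genes were chosen for mention after their values were seen. *MT-RNR1* stood at 8821, 6742 and 7271 CPM in DMSO and 11611, 11517 and 9031 CPM in EZH2i (log2 fold change 0.49, SE 0.13, edgeR adjusted p = 0.0403), with no overlap. *MT-RNR2*, the large ribosomal RNA, was not called, at 34469, 41825 and 37351 CPM against 42466, 43109 and 39496 CPM (0.14, SE 0.119, adjusted p = 0.573). The tRNA gene *MT-TY* was at 44.1, 25.6 and 22.9 CPM against 126, 73.8 and 39.5 CPM (1.39, SE 0.297, adjusted p = 0.0136).

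The 4 called tRNA genes were highest in EZH2i replicate 1, and DMSO replicate 1 was the highest of its group for all 4. The number of rRNA and tRNA genes called fell to 0 without DMSO replicate 2 or DMSO replicate 3 and to 2 without EZH2i replicate 1. It rose to 6 without DMSO replicate 1 or EZH2i replicate 2. It rose to 11 without EZH2i replicate 3, with a replicate block, and with no filter on low counts, where 22 were tested. Calls over all tested genes fell from 527 to 209 and 240 without DMSO replicate 2 and DMSO replicate 3. The median log2 fold change of the rRNA and tRNA genes was 0.64 in the main fit, and 0.68 and 0.50 without these 2 libraries. DESeq2 called 4 rRNA and tRNA genes, of which *MT-RNR1* and *MT-TC* were also called by edgeR. Reads on tRNA and rRNA genes in an oligo-dT library come from RNA that carried an A tail or an internal run of A, or from precursors, and which of these was read was not tested.

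**Figure D3:**
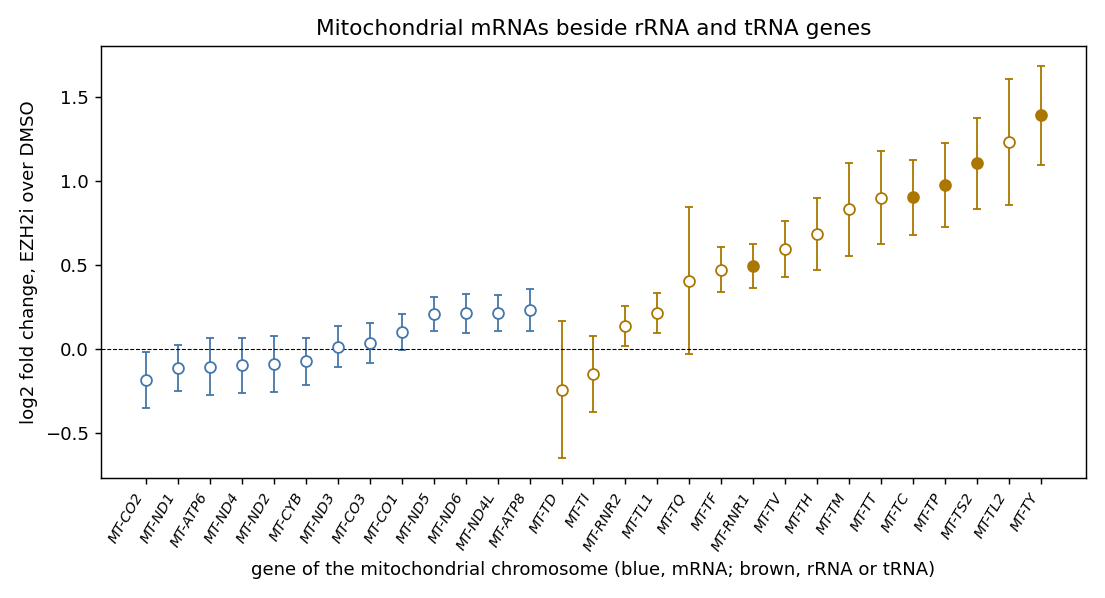
Log2 fold change, EZH2i over DMSO, of the 13 mRNAs (blue) and the 16 tested rRNA and tRNA genes (brown) of the mitochondrial chromosome, with bars of 1 SE and filled points for called genes. The mRNAs lie between -0.18 and 0.23, whereas 14 of the 16 rRNA and tRNA genes lie above 0 and 5 of them are called.

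Among the 107 nuclear-encoded members, 99 were tested and 2 were called, both lower in EZH2i, among them *COX18*, an insertase that places part of MT-CO2 in the inner membrane. That is 2 of the 112 members tested in both genomes, or 1.79%, beside 4.26% of all tested genes called in either direction, 3.34% higher and 0.922% lower. Small differences leaned to lower values. The median log2 fold change of the nuclear members was -0.09 with 72 of 99 below 0, against a median of 0.00 over all tested genes with 50% below 0.

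At an unadjusted p under 0.05, 13 nuclear members (13.1%) were lower and 4 (4.04%) higher, beside 8.21% and 10.9% of all tested genes. The EZH2i libraries were all below the DMSO libraries for 17 of the 99 and all above for 5, beside 11.1% and 13.3% of all tested genes. DMSO replicate 2 was the highest library for 40 of the 99 (40.4%, and 17.5% over all tested genes), and EZH2i replicate 1 the lowest for 37 (37.4%, and 24.3%). The median log2 fold change was -0.06 without the first of these and -0.09 without the second.

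**Figure D4:**
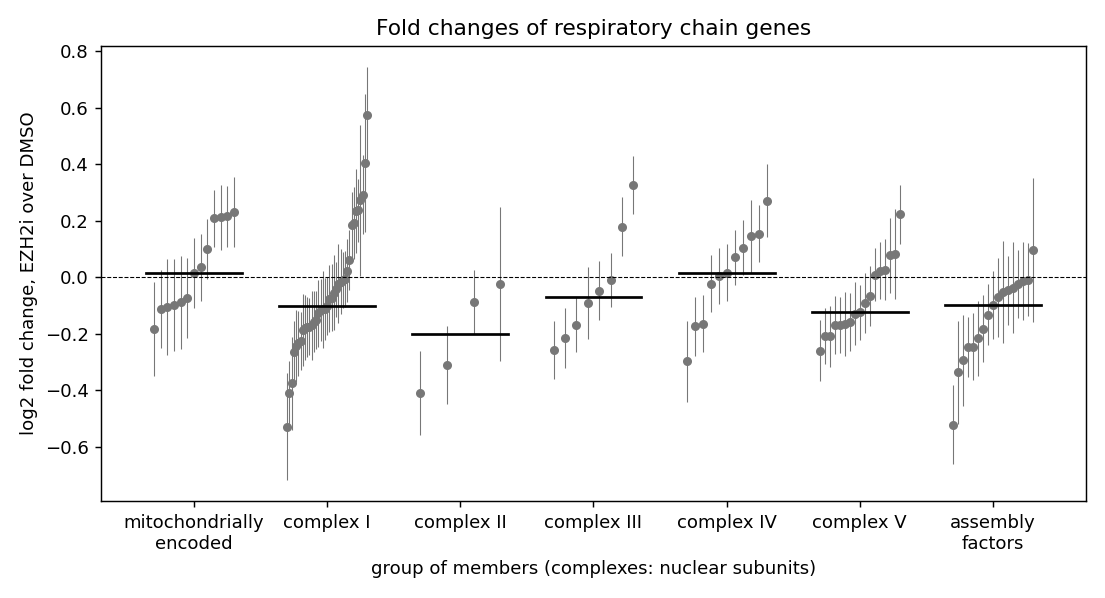
Log2 fold change, EZH2i over DMSO, of the mitochondrially encoded mRNAs, the nuclear subunits of each complex and the assembly factors, ordered within each group, with bars of 1 SE and a black line at the group median. All 4 genes of complex II and 16 of 17 assembly factors lie below 0.

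Complex I takes 37 nuclear subunits, 7 of them in the catalytic core. All 37 were tested, 1 was called lower, none was called higher, and 27 lay below 0 (median log2 fold change -0.10). Their summed level was 6346, 7127 and 6713 CPM in DMSO and 6513, 6284 and 6096 CPM in EZH2i, and the groups overlap.

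The genes with the highest and the lowest fold change in complex I did not pass the test. *NDUFA13*, a supernumerary subunit also known as GRIM-19, had 51.6, 44 and 50.4 CPM in DMSO and 100, 57.0 and 59.9 CPM in EZH2i. The groups did not overlap, but EZH2i replicate 1 was far above the other EZH2i cultures, and the log2 fold change of 0.57 (SE 0.171, edgeR adjusted p = 0.0688) went to 0.27 without it. *NDUFA13* was called in 4 of 12 alternative analyses, among them those without EZH2i replicate 2 or EZH2i replicate 3. Of the exonic bases of *NDUFA13*, 21.0% also belong to another gene on the same strand. *NDUFB3*, a supernumerary subunit of the membrane arm, had 45, 72.2 and 41.4 CPM against 40.8, 27.7 and 41.8 CPM. Its fold change, -0.53 (SE 0.19, adjusted p = 0.127), was the lowest in the complex and went to -0.23 without DMSO replicate 2, its highest culture.

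In complex II, which oxidises succinate and also works in the tricarboxylic acid cycle, all 4 genes lay below 0 and none was called. *SDHA*, the flavoprotein, had 69.0, 67.4 and 82.3 CPM in DMSO and 63.9, 69.6 and 72.3 CPM in EZH2i (log2 fold change -0.09, SE 0.113). *SDHB*, the iron-sulfur subunit, had 81.9, 83.0 and 61.8 CPM against 44.3, 59.1 and 67.2 CPM (-0.41, SE 0.148, edgeR adjusted p = 0.131). *SDHC*, a membrane anchor, had 38.3, 37.0 and 34.0 CPM against 23.8, 31.1 and 33.1 CPM (-0.31, SE 0.139, adjusted p = 0.231), the only complex II gene whose groups do not overlap. Without EZH2i replicate 1 the fold changes of *SDHB* and *SDHC* were -0.26 and -0.18.

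The other anchor, *SDHD*, had few reads, at 9.85, 13.9 and 5.33 CPM against 8.67, 8.45 and 11.5 CPM, and its log2 fold change of -0.02 had an SE of 0.272. *SDHD*, *SDHA*, *SDHC* and *SDHB* have 6, 4, 4 and 1 annotated pseudogenes of their names. Reads that aligned to several places were set apart in the files, 21.4 to 22.3% of listed reads, so reads shared with such copies are missing from the counts. The 4 genes summed to 199, 201 and 183 CPM in DMSO and 141, 168 and 184 CPM in EZH2i, with EZH2i replicate 1 the lowest and EZH2i replicate 3 inside the DMSO range.

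Complex III has 8 nuclear subunits among the members beside *UQCRHL*, an intronless paralog of *UQCRH*. None was called, and 6 of 8 lay below 0. *UQCR11*, a small accessory subunit, had 318, 318 and 352 CPM in DMSO and 454, 402 and 381 CPM in EZH2i. These groups do not overlap, and the log2 fold change was 0.33 (SE 0.103, edgeR adjusted p = 0.0871). *UQCRC2*, a core protein of the matrix side, had 229, 250 and 226 CPM against 181, 196 and 213 CPM (-0.26, SE 0.103, adjusted p = 0.17).

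*UQCRH*, the hinge protein that contacts cytochrome c1, had 1055, 1160 and 1041 CPM in DMSO and 967, 968 and 963 CPM in EZH2i (-0.17, SE 0.0972, edgeR adjusted p = 0.357), again without overlap. The cytochromes outside the name rule gave different values. *CYC1*, the cytochrome c1 of complex III, had 222, 229 and 203 CPM against 148, 182 and 193 CPM, with a log2 fold change of -0.32 (SE 0.113, adjusted p = 0.123). *CYCS*, the mobile cytochrome c, had 190, 185 and 190 CPM against 161, 209 and 200 CPM (0.01, SE 0.11).

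Complex IV was the group of nuclear subunits whose median lay above 0, at 0.02, with 4 of 11 genes below 0 and none called. This median is the value of *NDUFA4* (SE 0.101), whose log2 fold change ran from -0.0327 to 0.0768 across 12 alternative analyses, so its sign was not stable. The summed level of complex IV was 4272, 4803 and 4325 CPM in DMSO and 4721, 4454 and 4410 CPM in EZH2i. *COX7C*, a small membrane subunit, had 496, 608 and 511 CPM against 801, 573 and 574 CPM (log2 fold change 0.27, SE 0.13, edgeR adjusted p = 0.267), with EZH2i replicate 1 above all others and a fold change of 0.09 without it. *COX6C*, another small subunit with 17 annotated pseudogenes of its name, had 396, 559 and 395 CPM against 296, 390 and 412 CPM (-0.30, SE 0.143, adjusted p = 0.264), with EZH2i replicate 1 below all others. Its fold change was -0.16 without that library and -0.11 without DMSO replicate 2. The group's most read gene, *COX8A*, had 687, 704 and 648 CPM against 605, 679 and 724 CPM (-0.02, SE 0.102), and 35.4% of its exonic bases also belong to another gene on the same strand.

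Several complex IV subunits exist as paralogs, of which one form is known to be used in most tissues and the other in lung, muscle or testis. K562 cells in both groups expressed the widely used form. *COX4I1* had 449, 487 and 508 CPM in DMSO and 664, 482 and 450 CPM in EZH2i, while *COX4I2* had no read in any library. *COX6A1* had 107, 97.2 and 109 CPM against 113, 119 and 116 CPM (0.15, SE 0.1, edgeR adjusted p = 0.425), while the muscle form *COX6A2* had 2 reads in DMSO replicate 1 and none elsewhere. *COX6B1* stood at 398 to 415 CPM in DMSO and 401 to 450 CPM in EZH2i, beside 2 to 5 reads per library of the testis form *COX6B2*.

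For subunit 7A, *COX7A2* had 367, 414 and 354 CPM in DMSO and 380, 379 and 381 CPM in EZH2i, and the muscle form *COX7A1* had no read. *COX7A2L*, which joins complexes III and IV into supercomplexes, had 162, 173 and 136 CPM against 104, 139 and 132 CPM (-0.33, SE 0.124, edgeR adjusted p = 0.15), and its fold change was -0.21 without EZH2i replicate 1. *COX7B* stood at 306 to 359 CPM in DMSO and 293 to 311 CPM in EZH2i. *COX7B2* and *COX8C* each had a single read, in EZH2i replicate 1.

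A count of 0 allows up to 3 reads, which is 0.34 to 0.469 CPM in these libraries, counting error only, so the forms without reads were not detectable at this depth. *NDUFA4*, now counted with complex IV, had 298, 323 and 288 CPM in DMSO and 281, 326 and 312 CPM in EZH2i. Its hypoxia-responsive paralog *NDUFA4L2* passed the filter at 1.41, 2.02 and 1.02 CPM against 0.677, 2.27 and 0.573 CPM, too few reads to compare (SE 0.521). In each of these pairs of a widely used and a restricted form, the former held nearly all reads in both groups. The 8 members that did not pass the filter on low counts were *COX4I2*, *COX6A2*, *COX6B2*, *COX7A1*, *COX7B2*, *COX8C* and the readthrough genes *ATP5MF-PTCD1* and *NDUFC2-KCTD14*, the last at 0 reads.

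Complex V takes 17 nuclear subunits among the members. None was called, 11 lay below 0, and the summed level was 7573, 8234 and 8094 CPM in DMSO and 7235, 7712 and 7535 CPM in EZH2i. *ATP5F1C*, the central stalk of the catalytic head, had 162, 175 and 159 CPM against 120, 143 and 151 CPM, without overlap (log2 fold change -0.26, SE 0.108, edgeR adjusted p = 0.191), and the fold change was -0.17 without EZH2i replicate 1. The ring that turns in the membrane is made from a single mature protein encoded by 3 genes. *ATP5MC1* had 196, 185 and 228 CPM in DMSO and 235, 236 and 241 CPM in EZH2i (0.22, SE 0.104, adjusted p = 0.257).

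*ATP5MC2* had 609, 650 and 672 CPM against 536, 597 and 585 CPM (-0.17, SE 0.0983, edgeR adjusted p = 0.362). *ATP5MC3* had 1295, 1262 and 1248 CPM against 1164, 1350 and 1351 CPM (0.02, SE 0.101). Within this set EZH2i lay above DMSO in every culture for *ATP5MC1* and below in every culture for *ATP5MC2*, and none of the 3 differences passed the test.

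The 17 assembly factors named by the rule build complexes I and IV and are not part of the finished enzymes. *COX18* was called lower, none was called higher, and 16 of 17 lay below 0 (median log2 fold change -0.10). *COX18* had 41.1, 41.8 and 41.6 CPM in DMSO and 23.8, 28.2 and 34.8 CPM in EZH2i, so the DMSO cultures were nearly equal and each EZH2i culture was lower. The log2 fold change was -0.52 (SE 0.139, edgeR adjusted p = 0.0414). Across 12 alternative analyses the adjusted p of *COX18* ran from 0.00763 to 0.138, the highest without DMSO replicate 2, and it was past the threshold in 7. *COX17*, the copper chaperone of complex IV, had 142, 209 and 160 CPM against 101, 151 and 164 CPM (-0.29, SE 0.161, adjusted p = 0.331), and leaving out DMSO replicate 2 or EZH2i replicate 1 brought its fold change to -0.12 or -0.11. *COX16* had 4.16 to 6.13 CPM in DMSO and 4.44 to 6.18 CPM in EZH2i.

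**Figure D5:**
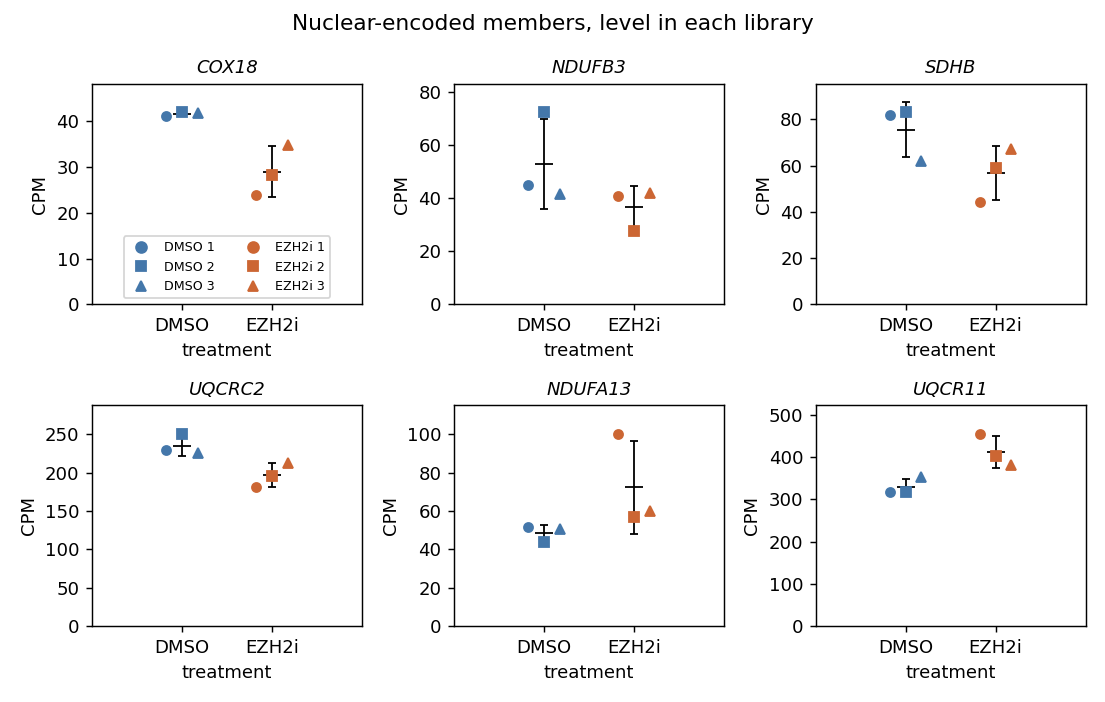
Level in CPM (axes from 0) of the called gene *COX18* and of the members with the lowest (*NDUFB3*, *SDHB*, *UQCRC2*) or highest (*NDUFA13*, *UQCR11*) fold change in complexes I, II and III, leaving out *SDHD*, in each library, with black bars for the mean and SD of 3. *COX18* has 41.1 to 41.8 CPM in DMSO and 23.8 to 34.8 CPM in EZH2i, whereas *NDUFA13* reaches 100 CPM in EZH2i replicate 1 only.

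Other genes of the same machinery were followed as lists. Of 73 tested mitochondrial ribosomal protein genes, *MRPS22* was called lower and none higher, with 54 below 0, a median of -0.10 and 19 (26.0%) at an unadjusted p under 0.05, all lower, beside 8.21% of all tested genes lower at that threshold. *MRPS22* had 117, 119 and 105 CPM in DMSO and 76.1, 89.9 and 88.5 CPM in EZH2i (log2 fold change -0.43, SE 0.108, edgeR adjusted p = 0.0338, at most 0.14 across alternatives). Of 23 genes for mitochondrial DNA expression, *TFB1M* was called lower, none was called higher, 16 lay below 0, and 6 (26.1%) had an unadjusted p under 0.05, all lower.

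*TFB1M*, the methyltransferase that modifies the small ribosomal RNA, had 60.8, 54.9 and 60 CPM in DMSO and 43.5, 44.5 and 42.8 CPM in EZH2i, without overlap (-0.42, SE 0.11, edgeR adjusted p = 0.0374, at most 0.136 across alternatives). *TFAM*, which packages mitochondrial DNA and helps start its transcription, had 201, 214 and 206 CPM against 160, 186 and 163 CPM (-0.29, SE 0.101, adjusted p = 0.122). No gene was called by edgeR among 14 of the tricarboxylic acid cycle, 7 tested nuclear regulators of mitochondrial genes or 38 other assembly factors, with 4, 0 and 3 at an unadjusted p under 0.05 and medians of -0.08, -0.03 and -0.07. The 4 of the tricarboxylic acid cycle were 2 higher and 2 lower, and the 3 assembly factors were all lower, beside 19.1% of all tested genes at that threshold in either direction.

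Many nuclear respiratory chain promoters are known to hold sites for NRF1, for ETS factors such as GABPA and for YY1. The RefSeq promoter table for GRCh38.p14, 250 bases before to 50 after a start site, held 86 of the 107 nuclear members. The letters GCGCATGC, of the NRF1 site, were searched on both strands and found in 17 of the 86 (19.8%), in 5.97% of tested protein-coding genes and in 4.25% of all protein-coding genes in the table. The ETS letters CCGGAAG were in 27.9% of members, 21.2% of tested and 14.4% of all genes, and the YY1 letters AAGATGG in 19.8, 8.17 and 6.43%. Among 69 promoters of mitochondrial ribosomal protein genes, the ETS letters were in 42% and the YY1 letters in 33.3%, above the members. There the NRF1 letters were in 8.7%, below the members. By complex, the NRF1 letters were in 5 of 32 promoters of complex I, 2 of 3 of complex II, 0 of 7 of complex III, 2 of 9 of complex IV, 4 of 13 of complex V and 4 of 15 of assembly factors.

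The windows around the NRF1 letters are printed for the called gene *COX18* and for the 6 other members described above with their values that hold them, with the matched letters in capitals and each sequence on the strand of its gene.
COX18 (chr4:73069740-73069779, - strand): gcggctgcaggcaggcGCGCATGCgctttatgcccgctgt
COX17 (chr3:119677499-119677538, - strand): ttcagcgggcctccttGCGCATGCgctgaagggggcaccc
SDHB (chr1:17054209-17054248, - strand): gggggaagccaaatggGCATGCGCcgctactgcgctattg
SDHD (chr11:112086747-112086786, + strand): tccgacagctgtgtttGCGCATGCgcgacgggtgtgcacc
ATP5F1C (chr10:7788139-7788178, + strand): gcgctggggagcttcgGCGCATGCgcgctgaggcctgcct
ATP5MC2 (chr12:53676100-53676139, - strand): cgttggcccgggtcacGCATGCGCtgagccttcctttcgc
COX6A1 (chr12:120437923-120437962, + strand): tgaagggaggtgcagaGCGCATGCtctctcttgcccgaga
The match began 47 bases before the start site in *COX18*, 116 in *COX17*, 200 in *SDHB*, 110 in *SDHD*, 22 in *ATP5F1C*, 40 in *ATP5MC2* and 174 in *COX6A1*, which holds another match 218 bases before it. In *COX18*, *COX17*, *SDHD* and *ATP5F1C* the letters overlap their own reverse complement, offset by 2 bases, so both strands match. Of the 17 members with the letters 11 had a log2 fold change below 0 and 6 above, from -0.52 in *COX18* to 0.24, with a median of -0.11, beside 72 of 99 below 0 and a median of -0.09 over all tested nuclear members. A match of letters is a description of the window and not evidence of binding.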

How the data were processed

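The authors sequenced QuantSeq 3′ mRNA libraries of 3 DMSO and 3 EZH2i cultures and deposited raw read counts per Ensembl gene for each library, made on hg38 with, per the labels, STAR 2.6.0c and HTSeq 0.11.2. The study names an Ensembl annotation of GRCh38, and the strand setting is not given in the sources used here. A deposited table of the authors' own DESeq2 comparison was not used. The rows for reads outside genes, ambiguous or not unique were kept out of library sizes, which left 63.6 to 67.9% of the listed reads. Of 60671 identifiers, 60401 matched GENCODE v44, which gave names, classes and positions.

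Counts were filtered with filterByExpr (minimum count 10), leaving 12364 genes, scaled by TMM and tested with edgeR 4.0.16 (R 4.3.3; quasi-likelihood, Benjamini-Hochberg over all tested genes), with SE taken as the absolute log2 fold change over the square root of F. Data were simulated for this comparison over 12367 genes, with 1 common dispersion (0.0129) and changed genes drawn from all tested genes. Of the changes, 82.2% of 0.5-fold, 43.8% of 0.67-fold, 48.0% of 1.5-fold and 92.0% of 2-fold were called, with 5 false calls. Alternatives were RLE scaling, DESeq2 1.42.0, other filters, library sizes without mitochondrial mRNAs, a replicate block, a stricter threshold and leaving out each library.

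Genes named in the text are the 13 mitochondrial mRNAs, every called member, the highest, the lowest and the most read gene of each nuclear group, the paralog sets, the SDH genes, *CYC1*, *CYCS*, *TFAM* and called genes of the lists, except for 1 member that this rule names and that is not reported here. The members and lists were chosen with earlier results of these data known. Replicates differed by more than counting error (chi-square per degree of freedom 4.56 to 12.7).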

Additional observations from a re-analysis of the deposited data

How the results depend on the processing

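The number of members called was 2 with RLE scaling and with DESeq2, 6 with no filter on low counts (*COX18*, *NDUFA13*, *NDUFB3*, *NDUFB7* and *SDHB* among them, where *NDUFB7* is named after its values were seen), 1 with at least 10 counts in every library, 1 with library sizes that left out the mitochondrial mRNAs (*COX18* in both), 0 at an adjusted p under 0.01, and 0 to 2 with a library left out. It was 0 without DMSO replicate 2, DMSO replicate 3 or EZH2i replicate 1, 1 without DMSO replicate 1, 2 without EZH2i replicate 2 (*NDUFA13* and *NDUFB7*, not *COX18*) and 2 without EZH2i replicate 3 (*COX18* and *NDUFA13*). Over all genes the 527 calls became 928 with no filter, 148 at the stricter threshold and 209 to 536 with a library left out, 213 without DMSO replicate 1, 209 without DMSO replicate 2 and 240 without DMSO replicate 3. The cause of these changes was not tested. Over all tested genes the deviations of same-numbered libraries correlated at -0.0572, -0.018 and -0.0207, which cannot show that pairing is absent in a smaller set of genes. The mitochondrial tRNA genes took 0.467, 0.372 and 0.313% of reads on genes in DMSO replicates 1, 2 and 3. In EZH2i they took 0.6, 0.531 and 0.443%, in the same replicate order. A replicate block called 3 members, with *NDUFA13* added, 599 genes, and 11 in place of 5 mitochondrial rRNA and tRNA genes. Whether same-numbered cultures were paired was not tested. The difference in the share of reads on mitochondrial mRNAs, 0.0561 percentage points, became 1 point when every gene of the mitochondrial chromosome was counted, rRNA and tRNA included. The median log2 fold change of the nuclear members stayed between -0.12 and -0.06 under the alternatives run, and that of the mitochondrial mRNAs between -0.11 and 0.08.

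Among the members named with values, these log2 fold changes changed sign in some settings, and members not named are left out: *ATP5MC3* (-0.0012 with no filter), *COX7A2* (-0.0021 with RLE, -0.0117 with DESeq2, -0.0182 with no filter), *MT-ND3* (-0.0036 with DESeq2, -0.0092 with no filter), *NDUFA4* (-0.0013 and -0.0082 in the same settings) and *SDHD* (0.0281 with the replicate block). With a library left out the ranges were -0.0135 to 0.0932 for *ATP5MC3*, -0.0326 to 0.2715 for *COX16*, -0.044 to 0.2504 for *COX4I1*, -0.0402 to 0.0761 for *COX7A2*, -0.0832 to 0.0477 for *COX8A*, -0.325 to 0.0888 for *MT-ATP6*, -0.3192 to 0.0315 for *MT-CO2*, -0.0481 to 0.0939 for *MT-CO3*, -0.2339 to 0.0783 for *MT-CYB*, -0.2663 to 0.0667 for *MT-ND1*, -0.2828 to 0.0819 for *MT-ND2*, -0.1117 to 0.0831 for *MT-ND3*, -0.2764 to 0.0561 for *MT-ND4*, -0.0327 to 0.0768 for *NDUFA4*, -1.2225 to 0.01 for *NDUFA4L2*, -0.1418 to 0.0093 for *SDHA* and -0.3335 to 0.3552 for *SDHD*. In the simulation, which gave every gene the same dispersion (0.0129), changes of 1.5-fold and 0.67-fold were called in 48.0% and 43.8% of cases. These shares were not estimated for the members.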
